A study of Saccharomyces cerevisiae with 12 samples.

Results

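Expression of 10 glucose-repressed genes of gluconeogenesis, the glyoxylate cycle and their supply was followed in yeast cells lacking the excision repair proteins Rad4, Rad23 or both. The genes were chosen by name, and the array annotation paired each with 1 probe set of its own, so that the 10 members were 10 of the 9275 probe sets tested. They were the gluconeogenic enzymes *PCK1* (YKR097W), *FBP1* (YLR377C) and *MDH2* (YOL126C), the glyoxylate cycle enzymes *ICL1* (YER065C) and *MLS1* (YNL117W), the acetyl-CoA suppliers *ACS1* (YAL054C) and *ADH2* (YMR303C), the activator *CAT8* (YMR280C) and the carriers *JEN1* (YKL217W) and *SFC1* (YJR095W). All strains were of the BY4742 background. Wildtype, *rad4Δ* and *rad23Δ* came from the Euroscarf collection, and the *rad4Δrad23Δ* double mutant was built in the *rad23Δ* strain, where *HIS3* took the place of *RAD4*. The double mutant therefore also carried a working *HIS3*, and loss of *RAD4* on top of *rad23Δ* cannot be told apart from gain of that marker. Cells were left untreated, grew in YPD, a rich medium with glucose, and were taken at an optical density of 0.5 to 0.6. Total RNA of 3 biological repeats of each strain was hybridized to Affymetrix yeast S98 arrays, 12 in all, and every level below is a log2 signal after robust multichip averaging.

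Yeast that has glucose ferments it and keeps the genes for making glucose from smaller molecules repressed. The repressor Mig1 holds their promoters while the kinase Snf1 is inactive, and when glucose runs out Snf1 relieves Mig1 and switches on the activators Cat8 and Adr1, which turn on enzymes that carry ethanol, acetate and lactate through acetyl-CoA and the glyoxylate cycle to sugar. Glucose given back to such cells shuts the genes off again and marks several of the enzymes for destruction through the GID ubiquitin ligase. In these glucose-grown cultures the members thus served as a readout of repression in each strain. *MDH2* was a limited readout, since it was not silent here, at 8.8 to 9.31 beside array medians of 5.83 to 5.90.

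No member passed the threshold, an adjusted p under 0.05, in any comparison of strains (limma's moderated test with Benjamini-Hochberg adjustment over all probe sets). When arrays were given weights gene by gene, a setting added with the values in view, *PCK1* (-0.41, adjusted p = 0.0326) and *ICL1* (-0.37, adjusted p = 0.038) passed in *rad23Δ*, *CAT8* (0.33, adjusted p = 0.0261) in the double mutant, and *SFC1*, *MDH2* and *PCK1* between the double mutant and *rad23Δ*. Under that setting 842, 827 and 924 of all 9275 probe sets passed in these comparisons. The 95% intervals of the differences in signal from wildtype reached from 0.62-fold to 1.56-fold over the 10 members and 3 mutants, with the arrays labelled as given. Without 2 arrays whose labels are in doubt (next paragraph), they reached on the log2 scale from -1.02 (*ACS1* in *rad4Δ*) to 0.64 (*ADH2* in *rad23Δ*). *CAT8* came nearest to the threshold, with higher values on all 6 arrays of strains without *RAD23* than on all 6 arrays of strains with it.

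The *RAD4* signal put the labels of a pair of arrays in doubt, at 3.42 on wildtype replicate 3 and 5.47 on *rad4Δ* replicate 2, against 5.11 and 5.12 on the other wildtype arrays and 3.49 and 3.01 on the other *rad4Δ* arrays. Unless stated otherwise, arrays kept their labels, and each comparison was also run without both. The *RAD23* signal lay between 9.32 and 9.82 on the 6 arrays of strains with the gene and between 3.66 and 4.88 on the 6 others. Differences by *RAD23* alone thus do not rest on the labels in doubt. Their SE and p-values do, since the spread within all labelled strains enters every test. The α-specific genes *STE3* (9.20 to 9.72) and *SAG1* (10.32 to 11.06) were high and the a-specific genes *STE2* (3.07 to 3.53) and *BAR1* (3.58 to 4.19) low on every array, as belongs to BY4742. Array medians lay between 5.83 and 5.90. The files hold no detection calls. Probe sets of genes that these cells lack (*RAD23*, *RAD4*, *URA3*, *LYS2* and *LEU2*) gave 2.70 to 5.48, and 6 of the 10 members, *PCK1*, *FBP1*, *MLS1*, *CAT8*, *JEN1* and *SFC1*, stayed under 5.48 on all 12 arrays, with 4.53 as the highest value of any. Background differs between probe sets, so this does not show that a transcript was absent, but differences of such dim probe sets can be understated.

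*PCK1* encodes phosphoenolpyruvate carboxykinase, which commits oxaloacetate to sugar synthesis. Its signal was 4.35, 4.51 and 4.31 on the wildtype arrays, 4.48, 4.22 and 4.45 for *rad4Δ*, 4.27, 3.91 and 3.94 for *rad23Δ* and 4.15, 4.22 and 4.47 for the double mutant. The 3 *rad23Δ* values lay below all wildtype values, whereas the other mutants overlapped with wildtype. With the labels in doubt exchanged, the value 4.22 of *rad4Δ* replicate 2 would count as wildtype, and *rad23Δ* would overlap too. *FBP1*, for fructose-1,6-bisphosphatase, the last enzyme specific to the way back to hexose phosphates, ranged from 3.26 to 3.87, and its strain means were 3.44 ± 0.12 (SD, n = 3) in wildtype, 3.68 ± 0.17 for *rad4Δ*, 3.46 ± 0.26 for *rad23Δ* and 3.45 ± 0.15 for *rad4Δrad23Δ*. The highest *FBP1* value, 3.87, was on *rad4Δ* replicate 2, an array in doubt. *MDH2* encodes the cytosolic malate dehydrogenase that feeds oxaloacetate to Pck1. It read 9.06, 9.18 and 9.28 in wildtype, 9.31, 9.14 and 8.95 for *rad4Δ*, 9.23, 8.80 and 8.90 for *rad23Δ* and 9.21, 9.21 and 9.14 for the double mutant. The strains overlapped in every pair.

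Isocitrate lyase, the product of *ICL1*, splits isocitrate at the first step particular to the glyoxylate cycle. *ICL1* read 5.62, 5.65 and 5.75 in wildtype, 5.66, 5.43 and 5.17 for *rad4Δ*, 5.59, 5.29 and 5.18 for *rad23Δ* and 5.52, 5.26 and 5.53 for the double mutant. All wildtype values exceeded all values of *rad23Δ* and of the double mutant, but the lowest wildtype value and the highest *rad23Δ* value were only 5.62 and 5.59. With the labels in doubt exchanged, the value 5.43 of *rad4Δ* replicate 2 would count as wildtype, which would then overlap with both. *MLS1*, which encodes the malate synthase that joins glyoxylate to acetyl-CoA, was narrow in wildtype (4.15 to 4.18) and ranged from 3.92 to 4.13 in the double mutant. It was 4.06 on *rad4Δ* replicate 2, so wildtype and double mutant would overlap with the labels in doubt exchanged. In *rad23Δ* it was 4.53, 4.04 and 4.04, so a single array held its highest value. *MLS1* shares close sequence with *DAL7*, the malate synthase gene of allantoin use, whose own probe set read 4.06 to 4.34, and how far each probe set reads the other transcript is not known from the files.

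*ACS1* encodes the acetyl-CoA synthetase that is repressed by glucose. It had the widest range of the 10, from 5.20 to 6.06, with means of 5.79 ± 0.26 (SD, n = 3) in wildtype, 5.54 ± 0.29 for *rad4Δ*, 5.57 ± 0.38 for *rad23Δ* and 5.55 ± 0.18 for the double mutant. Every mutant mean lay under that of wildtype by less than the SD of the wildtype arrays. *ADH2*, for the alcohol dehydrogenase that oxidizes ethanol, read 6.10, 5.94 and 6.49 in wildtype, 6.35, 6.17 and 6.16 for *rad4Δ*, 6.63, 6.19 and 6.12 for *rad23Δ* and 6.22, 6.29 and 6.24 for *rad4Δrad23Δ*. Each mutant fell within or overlapped the wildtype range. *ADH2* is nearly identical in sequence to the fermentative *ADH1*, which is strongly transcribed on glucose and whose probe set read 13.33 to 13.55, so the *ADH2* signal is uncertain and may hold *ADH1* transcript.

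*CAT8*, the zinc cluster activator of most of these genes and itself repressed by glucose, read 3.27, 3.12 and 2.97 in wildtype, 3.30, 3.32 and 3.30 for *rad4Δ*, 3.41, 3.40 and 3.45 for *rad23Δ* and 3.48, 3.45 and 3.70 for the double mutant. All 9 mutant arrays lay above all wildtype arrays, though the highest wildtype value, 3.27, and the lowest *rad4Δ* value, 3.30, nearly met. The lowest of the 3 wildtype values, 2.97, and the highest *rad4Δ* value, 3.32, were on the arrays in doubt. With these labels exchanged, wildtype and *rad4Δ* would overlap. *JEN1*, for the plasma membrane carrier of lactate and pyruvate, stayed between 3.22 and 3.58 on all arrays with overlap in every pair of strains. *SFC1* encodes the mitochondrial carrier that exchanges succinate for fumarate, and read 3.40, 3.43 and 3.54 in wildtype, 3.46, 3.52 and 3.53 for *rad4Δ*, 3.23, 3.19 and 3.28 for *rad23Δ* and 3.50, 3.40 and 3.49 for the double mutant. The *rad23Δ* values were below those of all 9 other arrays.

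**Figure D1:**
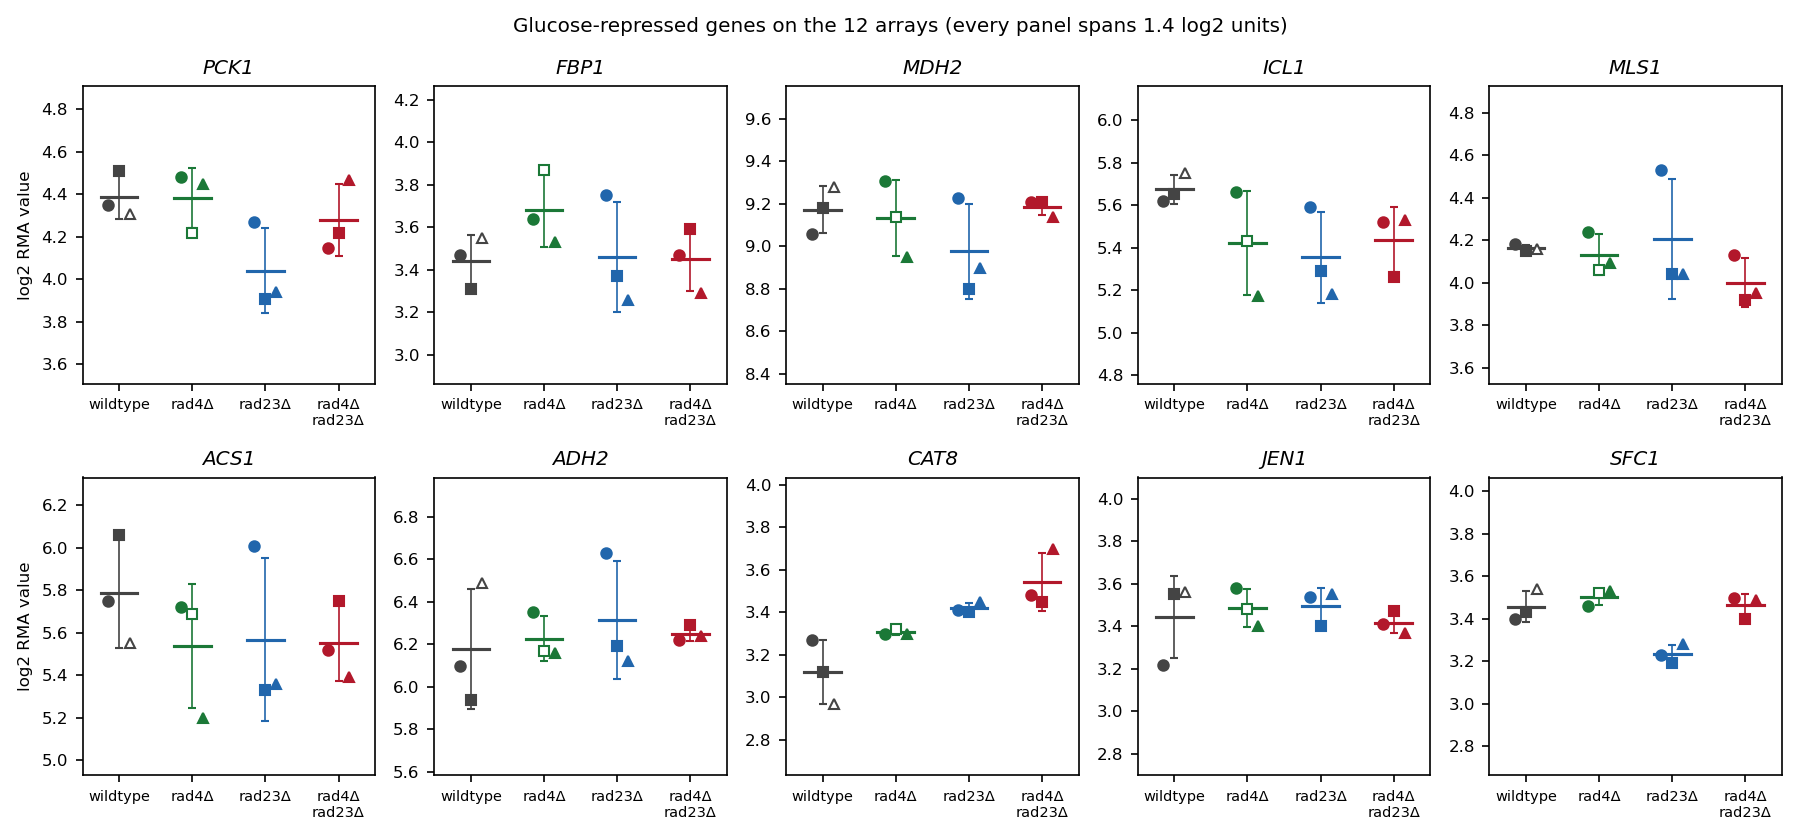
Log2 signal of each member on the 12 arrays, by strain, each panel on its own axis of equal span. Points are arrays, with a shape for each replicate number and open points for the 2 arrays with a doubtful label, and bars are strain means with the SD. *CAT8* is higher on the arrays of *rad23Δ* and *rad4Δrad23Δ* than on all others, and *SFC1* is lowest on the *rad23Δ* arrays (3.19 to 3.28).

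To ask whether loss of Rad4, Rad23 or both relieved repression of these genes, each mutant was compared with wildtype. In *rad4Δ*, 0 of 10 members passed the threshold, as did 0% of all probe sets, and 0 of 10 reached an unadjusted p under 0.05 against 4.16% of all. The largest differences were in *ICL1* (-0.25, SE 0.14), *ACS1* (-0.25, SE 0.21) and *FBP1* (0.24, SE 0.14), each with an adjusted p of 0.906. The median difference of the members was 0.02, beside 0.00 for all probe sets. Only *CAT8* did not overlap with wildtype, with the labels as given, against 5.47% of all probe sets. Since both arrays in doubt enter this comparison, it was repeated without them, and again 0 members passed (smallest adjusted p 0.62, for *ACS1*).

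In *rad23Δ*, 0 of 10 members passed, beside 0.280% of all probe sets. An unadjusted p under 0.05 was reached by 4 of 10 members, beside 7.15% of all probe sets. With the labels as given, the same 4 did not overlap with wildtype, beside 11.5% of all. These were *CAT8*, higher by 0.30 (SE 0.10, adjusted p = 0.483), and 3 with lower values, *PCK1* by -0.35 (SE 0.13, adjusted p = 0.558), *SFC1* by -0.22 (SE 0.08, adjusted p = 0.565) and *ICL1* by -0.32 (SE 0.14, adjusted p = 0.681). None of these 4 differences passed, and with the labels in doubt exchanged *PCK1* and *ICL1* would overlap with wildtype. Other members of the same kinds did not share the lower values, namely the enzyme genes *FBP1* (0.02) and *MLS1* (0.04) and the carrier gene *JEN1* (0.05). The median over the members was -0.09, beside -0.01 over all probe sets. Of the remaining members, 2 were lower, *MDH2* by -0.20 and *ACS1* by -0.22, and 4 were higher, by at most 0.14 (*ADH2*). Without both arrays in doubt 0 members passed (smallest adjusted p 0.457, for *PCK1*, at -0.39).

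In the double mutant, 0 of 10 members passed against wildtype, beside 0.647% of all probe sets, and only *CAT8* reached an unadjusted p under 0.05, beside 11.1% of all. *CAT8* was higher by 0.42 (SE 0.10), or 1.34-fold with a 95% interval of the log2 difference from 0.20 to 0.65, at an adjusted p of 0.107. *ICL1* (-0.24, SE 0.14) and *MLS1* (-0.16, SE 0.13) lay wholly below wildtype and *CAT8* wholly above, 3 of 10 members without overlap beside 24.9% of all probe sets. With the labels in doubt exchanged, *ICL1* and *MLS1* would overlap with wildtype, while *ADH2* would lie wholly above it, as would *CAT8*. Of the 9 members other than *CAT8*, which include the genes that Cat8 activates, 0 reached an unadjusted p under 0.05. *PCK1* differed by -0.11, *FBP1* by 0.01, *ACS1* by -0.23, *ADH2* by 0.07, *MDH2* by 0.01, *JEN1* by -0.03 and *SFC1* by 0.01, and the highest upper bound among these 7 was 0.41, for *ADH2*. Without both arrays in doubt *CAT8* was higher by 0.35 (adjusted p = 0.298).

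**Figure D2:**
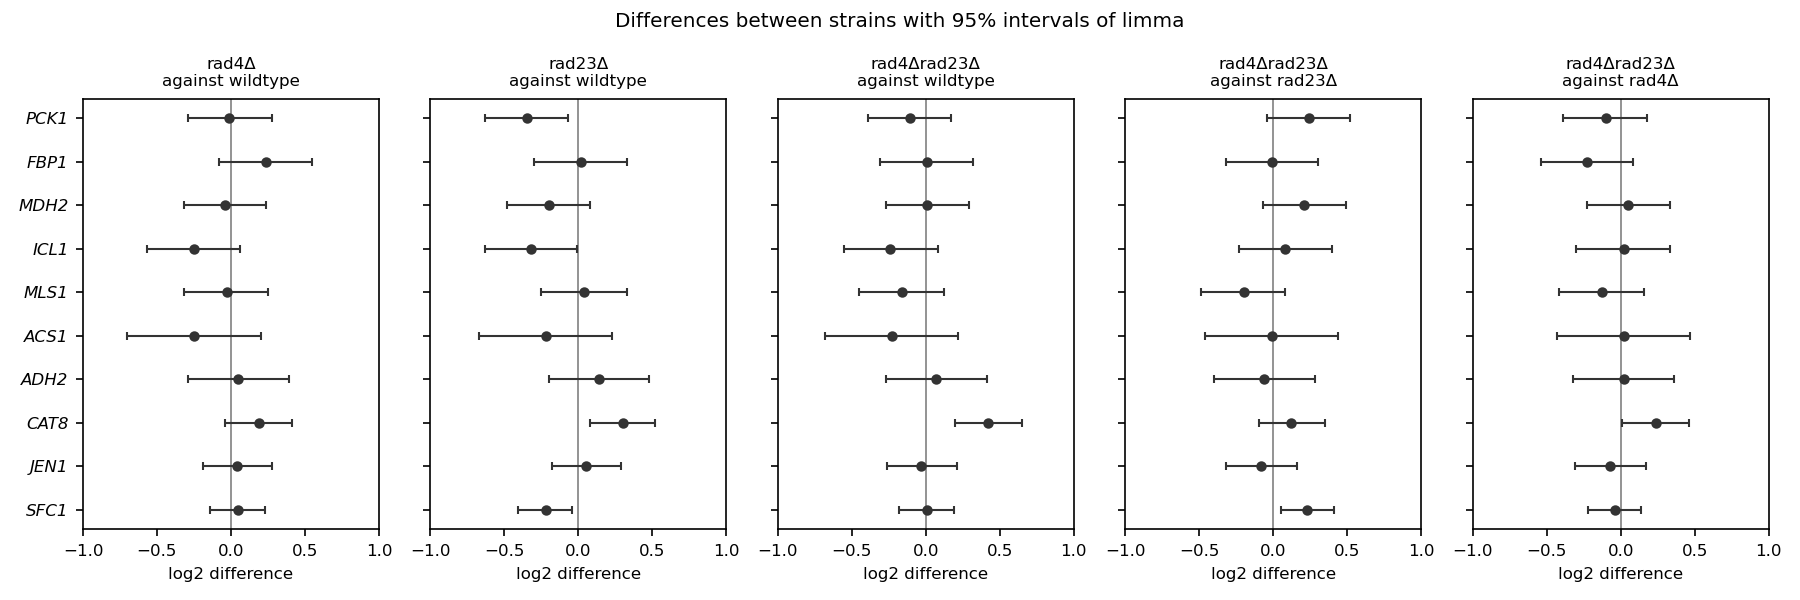
Difference on the log2 scale of each mutant from wildtype, and of the double mutant from each single mutant, for the 10 members, with 95% intervals of limma. *CAT8* lies to the right of 0 in *rad23Δ* (0.30) and *rad4Δrad23Δ* (0.42), *PCK1* (-0.35), *ICL1* (-0.32) and *SFC1* (-0.22) lie to the left in *rad23Δ*, and no member passed the adjusted threshold.

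The double mutant was then compared with each single mutant. Against *rad23Δ*, 0 of 10 members passed, beside 0.873% of all probe sets. *SFC1*, the only member with an unadjusted p under 0.05 (10.3% of all probe sets), was higher by 0.23 (SE 0.08, adjusted p = 0.326). It was also the only one without overlap (20.4% of all), and its mean in the double mutant, 3.46, was that of wildtype. *PCK1* was higher by 0.24 (SE 0.13, adjusted p = 0.592), with overlap. Against *rad4Δ*, 0 of 10 passed beside 0.765%, and *CAT8*, higher by 0.24 (SE 0.10, adjusted p = 0.423), was the only member with an unadjusted p under 0.05 (10.8% of all) and the only one without overlap (17.2% of all). The interaction of both deletions, the departure of the double mutant from the sum of the single mutants, passed for 0 of 10 members, beside 0.0863% of all probe sets, and 0 members had an unadjusted p under 0.05, beside 8.92%. Its largest value was 0.34 for *ICL1* (SE 0.20, adjusted p = 0.685), and its 95% intervals reached from -0.69 (*FBP1*) to 0.87 (*ACS1*), so that with 3 arrays per strain the interactions were known only within these bounds. The comparisons above share arrays of the same strains and are not independent of one another.

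Strains without *RAD23* were also compared with strains that carry it, 6 arrays against 6, a comparison added after the values were seen. Here 0 of 10 members passed, beside 0.863% of all probe sets, and 3 (*CAT8*, *PCK1* and *SFC1*) had an unadjusted p under 0.05, beside 9.83%. *CAT8* was higher by 0.27 (SE 0.07, 95% interval 0.11 to 0.43, adjusted p = 0.148), and it was the only member whose groups did not overlap, which held for 0.970% of all probe sets and, in this direction, for 0.377%. *PCK1* was lower by -0.23 (SE 0.09, adjusted p = 0.444) and *SFC1* by -0.13 (SE 0.06, adjusted p = 0.5). Of the 10 members 8 had a difference below 0, and their median was -0.09 beside -0.01 over all probe sets. Without both arrays in doubt the *CAT8* difference was 0.23 (adjusted p = 0.399). *CAT8* lay at the dim end of the scale in all strains, and lacking *RAD23* its highest value was 3.70.

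Part of the spread of the members ran along arrays rather than strains. The mean deviation of the 10 from their own 12-array means was highest on *rad23Δ* replicate 1 (0.16, with 8 of 10 members above their mean) and lowest on *rad23Δ* replicates 2 (-0.16, with 1 above) and 3 (-0.15, with 2 above), so the extremes were found within 1 strain. The next highest were *rad4Δ* replicate 1 (0.12) and wildtype replicate 3 (0.06), while the 3 double mutant arrays were all at 0.00. The lower quartile of all probe sets on an array moved with this. It was 4.08, 4.04 and 4.05 on the 3 arrays with the highest mean deviations and 3.86, 3.87 and 3.85 on the 3 with the lowest (the last being *rad4Δ* replicate 3, at -0.08), within a span of 3.84 to 4.08 over all arrays. The order was not strict, since wildtype replicate 2 had the lowest quartile, 3.84, and a mean deviation of 0.03. The part of this shift of dim probe sets in the members' differences was not tested. When *rad23Δ* replicate 1 was left out, *PCK1* differed from wildtype by -0.47 in *rad23Δ* (adjusted p = 0.226) and *ICL1* by -0.44 (adjusted p = 0.292), while *CAT8* (0.30, adjusted p = 0.307) and *SFC1* (-0.22, adjusted p = 0.351) kept the same difference.

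**Figure D3:**
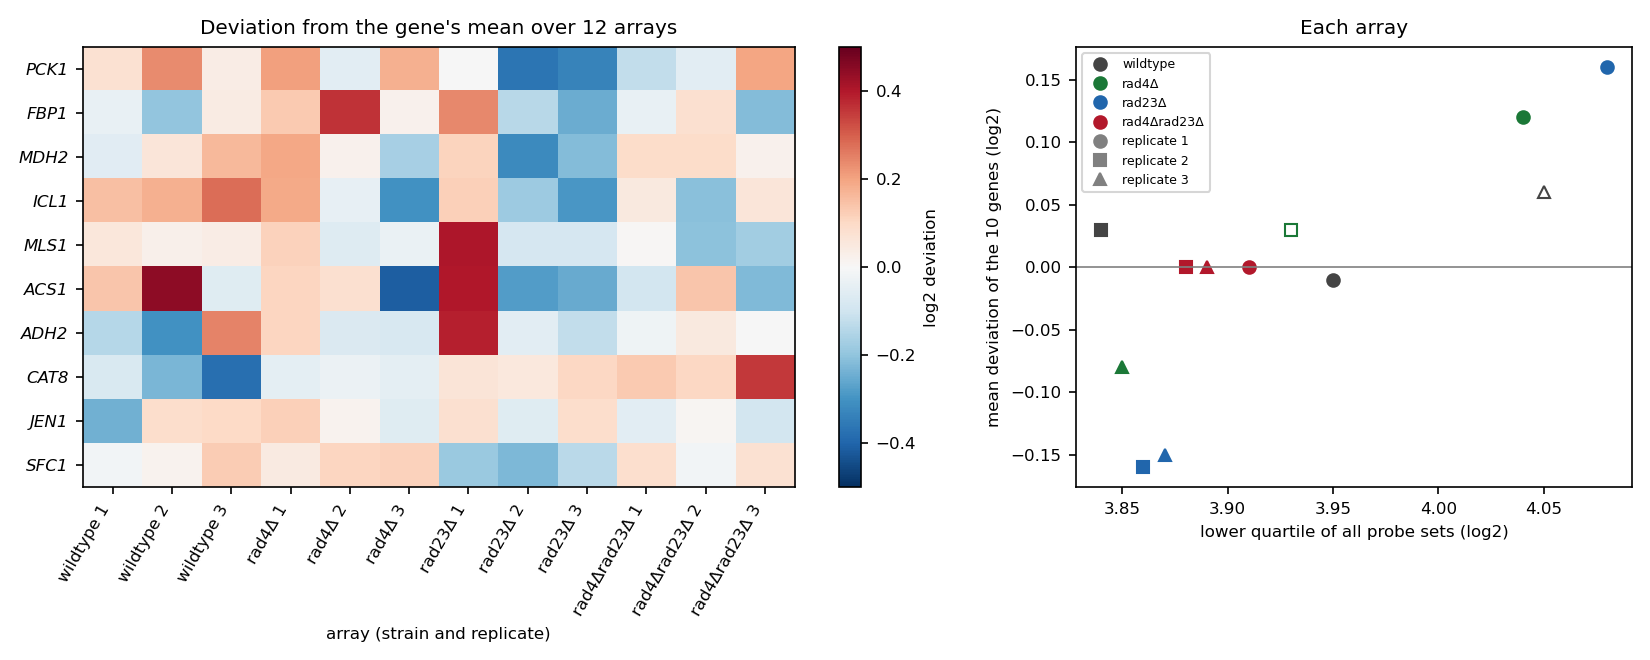
Deviation of each member from its own mean over the 12 arrays (left, log2 scale, red above and blue below), and the mean deviation of the 10 on each array against the lower quartile of all its probe sets (right, colours for strains, shapes for replicate numbers, open points for the arrays in doubt). Most members are high on *rad23Δ* replicate 1 and low on *rad23Δ* replicates 2 and 3, whose lower quartiles are 4.08, 3.86 and 3.87.

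Across the 12 arrays, 30 of the 45 pairs of members correlated above 0, with a median Pearson r of 0.27. The values ran from -0.44 for *ICL1* with *CAT8* to 0.73 for *MDH2* with *ICL1*. After strain means were taken away the median was 0.32, with 33 pairs above 0, so the common movement was also present within strains. The arrays share their normalization, and these values are a description. Outside the members, the probe sets most like the mean deviation of the 10 over the 12 arrays were those of *ASK10* (r = 0.95), *DAL3* (0.95), *YER084W* (0.94), *TDP1* (0.93) and *AQY1* (0.93), none of which passed in any comparison (smallest adjusted p 0.72).

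The regulators of the members were taken as a list of 27 genes with 28 probe sets, from the Snf1 kinase and its activating kinases to the Mig and Nrg repressors, the Tup1 and Cyc8 corepressors and the activators beside Cat8. Against wildtype 0 of them passed in *rad4Δ* and 0 in *rad23Δ*, beside 0% and 0.280% of all probe sets. An unadjusted p under 0.05 was met in *rad4Δ* by 1 with higher and 1 with lower values, beside 4.16% of all probe sets. In *rad23Δ* 4 were higher and 1 lower at that level, beside 7.15% of all. In the double mutant 1 of 28 probe sets passed against wildtype, beside 0.647% of all. It was that of *ADR1*, the zinc finger activator that works with Cat8 on *ADH2*, *ACS1* and other members. *ADR1* read 5.05, 4.95 and 4.95 in wildtype, 4.83, 4.87 and 4.74 for *rad4Δ*, 5.42, 5.31 and 5.27 for *rad23Δ* and 5.65, 5.67 and 5.86 for the double mutant. Like *CAT8*, it was higher on all 6 arrays without *RAD23* than on the 6 others. *ADR1* rose 1.67-fold in the double mutant against wildtype (0.74 on the log2 scale, SE 0.09, adjusted p = 0.00399; 0.0157 without both arrays in doubt) and by 0.91 against *rad4Δ* (adjusted p = 0.000623). In *rad23Δ* it was higher than wildtype by 0.35 (adjusted p = 0.261), and over the strains without *RAD23* against those with it the rise was 0.63 (SE 0.07, adjusted p = 0.000692). For *ADH2* the difference in the double mutant from wildtype was 0.07 with a 95% interval from -0.27 to 0.41. For *ACS1* it was -0.23 with an interval from -0.68 to 0.22. The *ADH2* signal may hold *ADH1* transcript, and whether the rise of *ADR1* reached its targets was not tested. The kinase gene *TOS3* was higher by 0.50 in the double mutant than in *rad4Δ* (adjusted p = 0.0445). This call was lost when any 1 of 10 arrays was removed, with an adjusted p of 0.259 at most (double mutant replicate 3), and without both arrays in doubt (0.0818). It was also lost with only the 2 strains compared (0.156) and with a trend in the variance model (0.0511). *MIG3*, for a repressor related to Mig1, did not pass with all arrays and passed without both in doubt, lower in the double mutant than in *rad23Δ* (-0.57, adjusted p = 0.0355, against 0.137 with all arrays) and in the interaction (-1.01, adjusted p = 0.0213, against -0.72 and 0.321 with all arrays). *SNF1* itself differed from wildtype by 0.01 and *MIG1* by -0.16 (adjusted p = 0.707) in the double mutant. Over the list the median difference was -0.01, beside -0.02 over all probe sets.

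**Figure D4:**
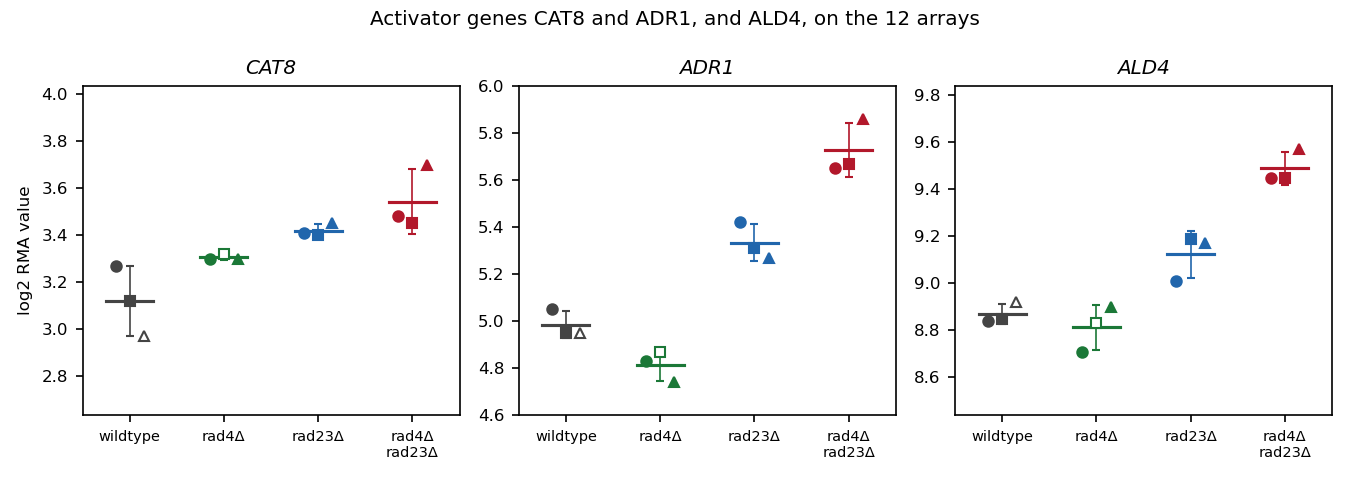
Log2 signal of *CAT8*, *ADR1* and *ALD4* on the 12 arrays by strain, each on its own axis of equal span, with means and SD as bars and open points for the 2 arrays with a doubtful label. In all 3 genes the 6 arrays without *RAD23* lie above the 6 with it, and for *ADR1* the double mutant (5.65 to 5.86) also lies above *rad23Δ* (5.27 to 5.42).

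Further genes of growth on non-fermentable carbon gave the surroundings of the members. Of 24 such genes (27 probe sets), for oxidation of fatty acids, glycerol, lactate and acetate, 1 passed in the double mutant against wildtype, beside 0.647% of all probe sets. It was *ALD4*, the mitochondrial aldehyde dehydrogenase upstream of acetyl-CoA synthesis. *ALD4* read 8.84, 8.85 and 8.92 in wildtype, 8.71, 8.83 and 8.90 for *rad4Δ*, 9.01, 9.19 and 9.17 for *rad23Δ* and 9.45, 9.45 and 9.57 for the double mutant. It was 1.54-fold higher in the double mutant than in wildtype (0.62, SE 0.09, adjusted p = 0.00911), missed the threshold without wildtype replicate 1 (0.0579) and without each double mutant array in turn (0.0501, 0.0538 and 0.085), and passed between strains without and with *RAD23* (0.46, adjusted p = 0.00842). The next largest difference of the list against wildtype was in *ATO2*, an acetate and ammonium transporter gene, at 0.57 (adjusted p = 0.228). The list's median was -0.01. Of 8 genes of sucrose and galactose use, a separate branch of glucose repression, 0 passed in any comparison, 0 had an unadjusted p under 0.05 in the double mutant against wildtype, and the largest differences in the double mutant were 0.46 in *GAL80* (adjusted p = 0.452) and -0.33 in *GAL1*. Of 10 genes of the GID ligase and its partners 0 passed. In the double mutant an unadjusted p under 0.05 was met by 2 with higher and 1 with lower values, beside 11.1% of all probe sets. *VID24*, the receptor subunit that recognizes Fbp1 and Mdh2, differed there from wildtype by -0.68 (adjusted p = 0.189). Of 15 genes (17 probe sets) for isozymes and neighbouring steps 0 passed. In the double mutant 2 of these probe sets were higher and 1 lower at that level, beside the same 11.1%. *CIT1*, mitochondrial citrate synthase, came nearest in the double mutant at 0.56 (adjusted p = 0.054). *ACS2*, the acetyl-CoA synthetase used on glucose, stayed between 9.64 and 10.03 on all arrays.

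Genes of the late growth state and of stress were read beside these results, since the members are also switched on as glucose runs low. The mean over 10 such genes was 8.06 to 8.37 on the wildtype arrays, 7.94 to 8.22 for *rad4Δ*, 7.76 to 7.81 for *rad23Δ* and 8.65 to 8.71 for the double mutant. Against wildtype 0 of 10 passed in any mutant, beside 0%, 0.280% and 0.647% of all probe sets in *rad4Δ*, *rad23Δ* and the double mutant. An unadjusted p under 0.05 was reached by 1 of 10 in *rad4Δ* and 3 of 10 in *rad23Δ*, all with lower values. In the double mutant 3 of 10 reached it, all with higher values. Over all probe sets the shares at that level were 4.16%, 7.15% and 11.1%. These comparisons moved with the arrays in doubt. Without both, *HSP12* and *HSP26* were lower than wildtype in *rad4Δ* (-1.54 and -1.22, adjusted p = 0.000338 and 0.000357) and in *rad23Δ* (-2.18 and -2.02, adjusted p = 5.51e-06 and 2.7e-06), and *HSP26* was lower in the double mutant (-0.53, adjusted p = 0.0336). Against *rad23Δ* 9 of 10 were higher in the double mutant with an unadjusted p under 0.05, beside 10.3% of all probe sets. Of these 1 passed, beside 0.873% of all probe sets, namely *HSP12* (2.64, adjusted p = 0.0209). It missed when any of the 6 arrays of these strains was removed (0.0548 to 0.11) and passed without both arrays in doubt (9.13e-07). The mean of the list was thus highest in the double mutant, as were the means of *CAT8*, *ADR1* and *ALD4*, and lowest in *rad23Δ*, where the *CAT8* mean was above that of wildtype. Single genes departed from this order, and the part of the list in the members' differences was not tested.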

How the data were processed

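Deposited values were log2 signals with 2 decimals. Per the labels, the authors used Microarray Suite 5.0 for scanning and applied robust multichip averaging with Affy 1.5.8 of Bioconductor 1.5 in R 2.0.1, which subtracts background, equalizes probe distributions between arrays and summarises each probe set. That step pulls arrays to 1 distribution and compresses differences of dim probe sets. No genome build is given in the sources used here.

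No further normalization or filter was applied. Of 9335 probe sets, 60 Affymetrix controls were left out and 9275 tested, and 6504 of them had 1 gene name (all matched to a RefSeq gene), 328 several and 2443 none. A linear model with a mean for every strain was fitted over the 12 arrays by limma 3.58.1 in R 4.3.3 (lmFit and eBayes, two-sided, 8 residual and 4.03 prior degrees of freedom), and p-values were adjusted by Benjamini-Hochberg over the 9275, with a threshold of 0.05. The study's methods name no test. Intervals are 95% intervals of limma, and the 3 arrays per strain limit the precision. Labels call the arrays of a strain biological repeats.

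Strains were grouped by the sample titles. Members and lists were chosen with earlier results of these data known. All 10 members are named. From each list, genes past the threshold and the 2 with the largest differences could be named, and other list genes named were chosen after their values were seen. Genes most like the members are the 5 with 1 gene name and the highest Pearson correlation with the members' mean deviation. Alternatives changed scaling, a filter on mean values under 5, the variance model, which strains were fitted, array weights, the probe set used per gene, a block for replicate number and single arrays left out. The code was tested on simulated data. Promoters were not searched, because no sequence was at hand.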

Additional observations from a re-analysis of the deposited data

Results flagged for a closer look

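The effect of deleting *RAD4* in cells with and without *RAD23* was set side by side for the 10 members and for *ADR1*, *ALD4*, *TOS3* and *HSP12*, the genes followed through the alternatives. No member met the condition that every array moved one way in one background and the opposite way in the other. *ADR1* and *TOS3* met it, as every *rad4Δ* array lay below the wildtype mean and every double mutant array above the *rad23Δ* mean. For *ADR1* the effect was -0.17 with *RAD23* and 0.39 without it, and the difference of these effects was 0.56 on the log2 scale (limma interaction, adjusted p = 0.175, unadjusted p = 0.00113). For *TOS3*, whose product activates Snf1, the effects were -0.12 and 0.37, and their difference was 0.48 (adjusted p = 0.299, unadjusted p = 0.00546). Neither difference passed after adjustment over all probe sets. The pattern is not particular to these genes, since 13 of the 115 probe sets of all gene lists showed it in one direction or the other. Among them were *REG1*, *MIG1* and *GPH1*. Its share over all probe sets was not counted, so how often it arises without an effect is not known here. The interaction of *GPH1*, for glycogen phosphorylase, was 2.04 (adjusted p = 0.089). Without both arrays in doubt, among the regulators and the growth-state and stress genes, the interaction passed for *MIG3*, *HSP12*, *HSP26*, *GPH1* and *HXK1*, not for *ADR1* (adjusted p = 0.119) or *TOS3* (0.303). Also, *RAD4* deletion in *rad23Δ* cells cannot be told apart from the *HIS3* marker. With 3 arrays per strain, single arrays far from the others of their strain were not tested.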

How the results depend on the processing

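The count of members called was 0 in every comparison under all alternatives but array weights, and no difference that had passed changed sign. With limma's default array weights, whose estimation stopped before converging (weights from 0.232 to 11.5), 1, 5, 1, 3, 1, 0 and 2 members and 639, 2357, 2359, 896, 882, 1016 and 1892 of all probe sets passed in *rad4Δ*, *rad23Δ* and the double mutant against wildtype, the double mutant against *rad23Δ* and *rad4Δ*, the interaction, and the strains without against those with *RAD23*. With weights gene by gene (0.277 to 3.27), chosen after the values were seen, 2 members passed in *rad23Δ* and 1 in the double mutant against wildtype and 3 in the double mutant against *rad23Δ*, and 1, 842, 827, 924, 344, 332 and 755 of all. The cause was not tested. For all probe sets, the interaction called 8, and 13 with median-centring, 14 with quantile normalization and 16 with the replicate block. The replicate numbers did not pair the samples (r of 18 same-numbered pairs from -0.366 to 0.609, 10 over 0.1), 7 of 12 arrays correlated best with their own number, and 0 members passed under the block. With only the strains compared, all called were 9 in *rad23Δ* against wildtype, 156 in the double mutant against *rad23Δ* and 20 against *rad4Δ*. Without both arrays in doubt they were 40 in *rad4Δ* and 61 in *rad23Δ* against wildtype, 125 and 116 in the double mutant against *rad23Δ* and *rad4Δ* and 110 for the interaction. With each array left out in turn, members called stayed at 0, and all called ranged from 0 to 8 in *rad4Δ* (8 without *rad4Δ* replicate 1), 7 to 25 in *rad23Δ* (7 without wildtype replicate 1) and 17 to 95 in the double mutant against wildtype (17 without double mutant replicate 3), 7 to 107 against *rad23Δ* and 25 to 88 against *rad4Δ* (7 and 25 without double mutant replicate 3), 3 to 24 for the interaction (24 without *rad4Δ* replicate 2) and 25 to 93 between strains without and with *RAD23* (25 without double mutant replicate 1). Dim signal limits how small a change of *CAT8*, *FBP1*, *JEN1*, *SFC1*, *MLS1* and *PCK1* could be seen. The filter on dim probe sets gave no value for these 6 members. The search of promoters was not run.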
